A study of Mus musculus with 8 samples.

Results

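Glycolysis and hypoxia response genes are described here as 36 genes picked by name, from glucose uptake to lactate export and pyruvate oxidation, together with 6 genes of the hypoxia response. All 36 names were found among the 26939 genes of the deposited tables, and their counts were compared over 8 bulk RNA-seq libraries of tumor-associated macrophages (TAMs). The TAMs came from EO771 tumors, a mouse mammary carcinoma line grown in female mice 8 to 14 weeks old, and were sorted on day 21 as living cells positive for CD45, CD11b and F4/80 and negative for Gr-1. WT and *Unc93b1* 3d/3d mice were each used as controls and with αMARCO treatment, which makes 4 groups of 2 libraries. WT mice were C57BL/6J, and *Unc93b1* 3d/3d mice carry a point mutation in the chaperone that brings endosomal Toll-like receptors to their compartment, in every cell of the animal. αMARCO mice received 100 µg of the antibody ED31 against the scavenger receptor MARCO per dose on days 3, 6, 9 and 12. The labels call the controls untreated and name their libraries PBS, while the labelled protocol names an IgG1 isotype antibody, so what the controls received is not settled. The study states that each control library pooled TAMs of 3 mice, and no pooling is stated for the αMARCO libraries. The genotype entry of *Unc93b1* 3d/3d control replicate 2 reads 3d/4d, whereas its title reads 3d/3d, and the title was followed.

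Glycolysis breaks glucose down to pyruvate in the cytosol, and its preparatory steps spend ATP while its payoff steps, from GAPDH to pyruvate kinase, return it. Pyruvate is then turned into lactate and exported, or enters mitochondria through pyruvate dehydrogenase, which pyruvate dehydrogenase kinases switch off. When oxygen is scarce, prolyl hydroxylases stop marking HIF-1α for destruction, and HIF-1 raises transcription of glucose transporters, glycolytic enzymes and genes such as *Bnip3*. Macrophages in tumors are known for high glycolytic activity, and hypoxic tumor areas hold many of them.

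The libraries held 15182618 to 26411936 counts, and levels are given as CPM, counts relative to each library's size after TMM scaling over the 8 libraries. The smallest amount taken as detected, 3 counts, corresponded to 0.116 to 0.204 CPM on this scale, which covers counting error only. *Unc93b1* 3d/3d αMARCO replicate 2 stood apart from the other libraries. Its reads fell on genes of 4432 bases on average, against 4996 to 5544 bases elsewhere, and its 100 most abundant genes took 24.6% of reads, against 19.9 to 21.4%. The summed level of the 11 macrophage markers was 10765 to 17750 CPM, that of the epithelial markers 24.5 to 44.7 CPM with *Cldn3* at 0, and that of the neutrophil markers 221 to 385 CPM. The 9 T cell markers summed to 113 and 129 CPM in WT control, 79.2 and 70.5 CPM in *Unc93b1* 3d/3d control and 11.4 to 23.7 CPM in the 4 αMARCO libraries. *Unc93b1* itself was read at 707 to 965 CPM in WT and 539 to 659.7 CPM in *Unc93b1* 3d/3d libraries. Since the 3d allele is a point mutation, these levels do not check the labels.

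Of the 36 members, 35 passed the filter on low counts in every comparison. The exception was *Pdk4*, a pyruvate dehydrogenase kinase, which had 0 counts in 7 libraries and 4 counts in *Unc93b1* 3d/3d αMARCO replicate 1. Per kilobase of gene length, the highest median levels over the 8 libraries belonged to *Aldoa* (aldolase A), at 443 CPM per kb, and *Pkm* (pyruvate kinase), at 396 CPM per kb. *Ldha*, which makes lactate from pyruvate, followed at 256 CPM per kb, *Pgk1* (phosphoglycerate kinase) at 220 CPM per kb, *Tpi1* (triosephosphate isomerase) at 208 CPM per kb and *Eno1* (enolase) at 206 CPM per kb. The ranges of *Pgk1*, *Tpi1* and *Eno1* over the libraries overlapped, at 177 to 257, 159 to 233 and 179 to 274 CPM per kb. *Gapdh*, the enzyme between *Tpi1* and *Pgk1*, had a median of 38.4 CPM per kb and ranged from 14.2 to 97.4 CPM per kb. Per kilobase of the authors' gene length it was thus read below both neighbours in every library. That length is 4133 bases for *Gapdh*, whereas transcripts of *Gm7336*, *Gm5559* and *Gm12070*, pseudogenes that copy its mRNA, have 1002 to 1232 bases. A shorter length would raise its level per kb, so its place below *Tpi1* and *Pgk1* depends on the length used. Reads of *Gapdh* may also match its pseudogenes, and the effect of this on its level was not tested. Among the isoforms, the liver and platelet phosphofructokinases *Pfkl* and *Pfkp* were read at 143 to 199 CPM and 142 to 282 CPM, and the muscle form *Pfkm* at 9.22 to 14.8 CPM. *Ldhb*, the lactate dehydrogenase subunit of heart, had 1.07 to 2.72 CPM. Of the lactate transporters, *Slc16a3*, which exports lactate, had 218 to 321 CPM and *Slc16a1* 20.4 to 31.5 CPM. *Pdk1*, the kinase induced by HIF-1, had 70.2 to 93.3 CPM, *Pdk3* 19.7 to 33.0 CPM and *Pdk2* 3.32 to 6.26 CPM. These ranges are over the 8 libraries, and CPM is not compared between genes of different length. A second row named *Aldoa*, a neighbouring gene model with another identifier, held 7 to 38 counts and is left out of all results.

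**Figure D1:**
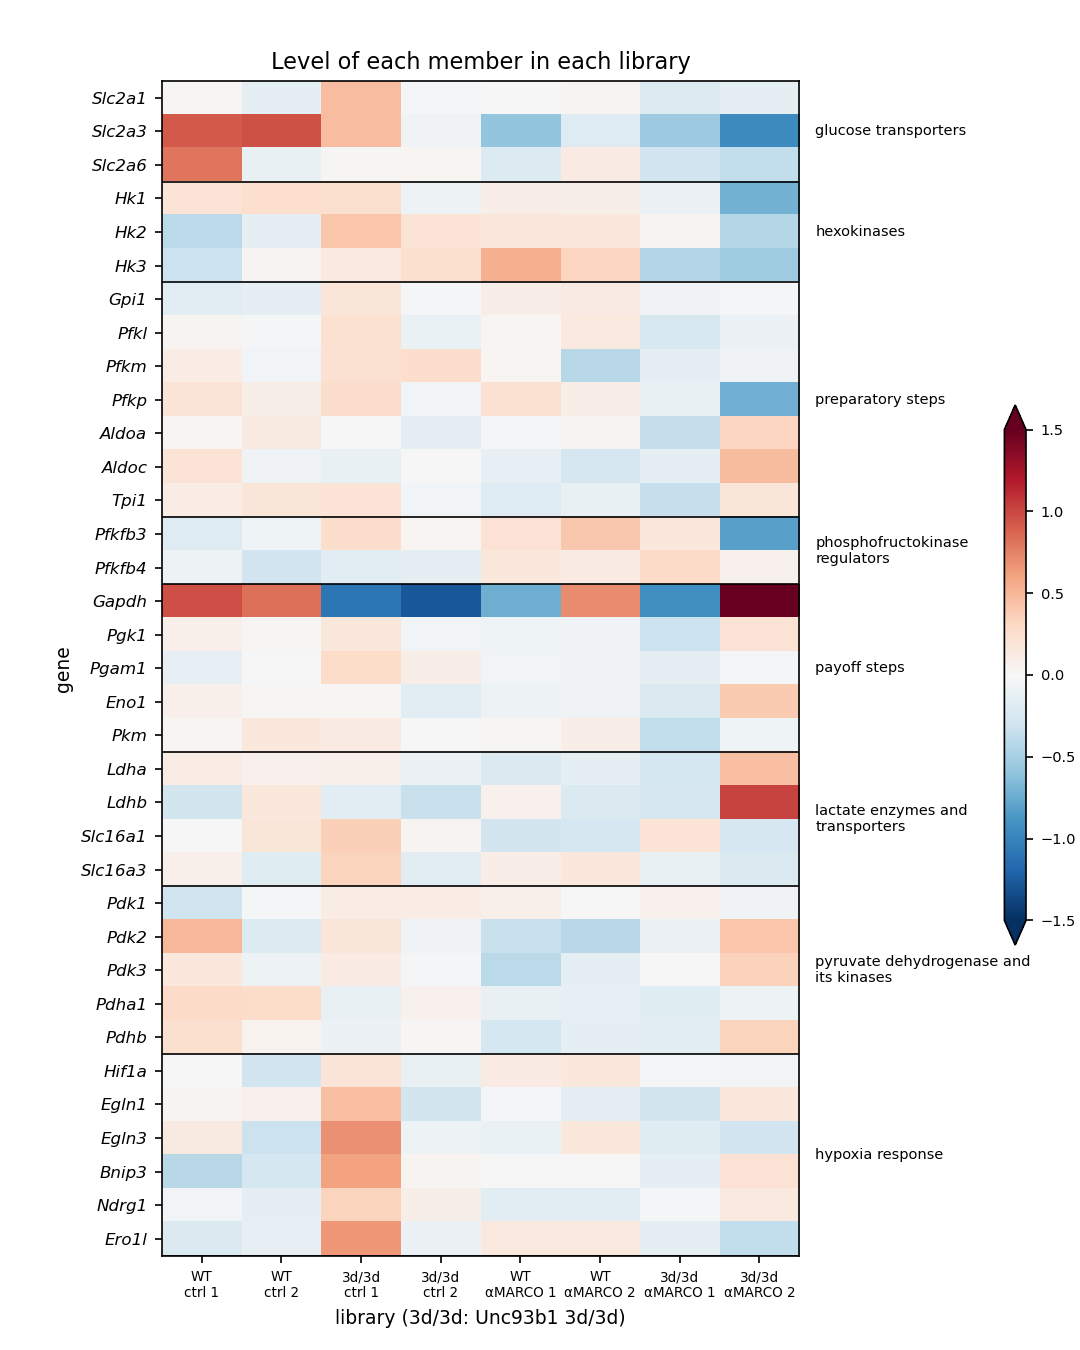
Level of the 35 tested members (rows, grouped by role) in the 8 libraries (columns), as log2 of the CPM over the gene's geometric mean across the libraries, with the scale ending at −1.5 and 1.5. Gapdh swings between libraries while the other payoff steps stay pale, and the 6 hypoxia response genes are highest in Unc93b1 3d/3d control replicate 1.

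*Gapdh* (ENSMUSG00000057666, GRCm38 chromosome 6, 125161715 to 125166467, minus strand) was the member whose level ranged most over the libraries. Many processed pseudogenes copy its mRNA, so a read may match several places. The stretch below, 100 bases of coding sequence in exon 4 of *Gapdh* (chr6:125162901-125163000, minus strand), is shown because it occurs without a mismatch in 37 other annotated genes. The lines under it give the same stretch in the 3 *Gapdh* pseudogenes with most counts, *Gm7336* (chr7:51747058-51747157, plus strand), *Gm5559* (chr5:95862075-95862174, plus strand) and *Gm12070* (chr11:26786994-26787093, plus strand), from GENCODE transcripts on GRCm38. A capital marks a base that differs from *Gapdh*.
Gapdh: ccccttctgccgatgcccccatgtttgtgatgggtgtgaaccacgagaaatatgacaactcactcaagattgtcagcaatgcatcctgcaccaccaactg
Gm7336: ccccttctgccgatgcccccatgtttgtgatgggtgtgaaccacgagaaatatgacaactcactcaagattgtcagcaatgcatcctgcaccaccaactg
Gm5559: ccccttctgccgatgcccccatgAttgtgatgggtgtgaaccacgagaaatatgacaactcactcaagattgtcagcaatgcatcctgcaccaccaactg
Gm12070: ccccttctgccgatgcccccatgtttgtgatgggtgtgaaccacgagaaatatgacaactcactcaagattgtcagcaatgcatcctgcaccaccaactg
Only *Gm5559* differed, at 1 base. Of all 100-base windows of *Gapdh* transcripts, 53.1% occurred in 86 other annotated genes. The shares were also high for *Pgk1*, at 67.0% in 3 other genes, for *Pgam1* (phosphoglycerate mutase), at 39.7% in 2, and for *Eno1*, at 39.5% in 4, and 31.6% for *Bnip3* in 4. They were 0% for *Slc2a3*, *Hk2*, *Hk3*, *Egln1*, *Egln3* and *Ero1l*. How the counting treated reads that match several places, and whether it used strand, is not given in the sources used here.

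*Gapdh* had 277 and 251 CPM in WT control, 66.6 and 58.5 CPM in *Unc93b1* 3d/3d control, 85.4 and 232 CPM in WT αMARCO, and 74.8 and 402 CPM in *Unc93b1* 3d/3d αMARCO. The control genotypes did not overlap, whereas each αMARCO group held 1 library near the WT control level or above it and 1 near the *Unc93b1* 3d/3d control level. In WT αMARCO its higher library exceeded the lower 2.72-fold, and 5 of 9054 genes with a mean of at least 10 CPM differed as much between these replicates. The other 30 members at that level had a median ratio of 1.04 and a highest of 1.36, for *Pfkm*. In *Unc93b1* 3d/3d αMARCO the ratio for *Gapdh* was 5.38, reached by 43 of 9054 genes, and the other members had a median of 1.25 and a highest of 1.96, for *Pfkfb3*. Within WT control and within *Unc93b1* 3d/3d control, *Gapdh* differed 1.11-fold and 1.14-fold. Over all 8 libraries its highest level was 6.87 times its lowest. Among the 31 members with a mean of at least 10 CPM the next were *Pfkfb3* at 2.34, *Hk3* at 2.10 and *Bnip3* at 2.02, and *Slc2a3*, which lay under 10 CPM, had 3.75.

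The enzymes next to *Gapdh* in the pathway did not follow it. *Tpi1*, which supplies its substrate, had 602 and 632 CPM in WT control, 641 and 543 CPM in *Unc93b1* 3d/3d control, 488 and 516 CPM in WT αMARCO, and 438 and 631 CPM in *Unc93b1* 3d/3d αMARCO. *Pgk1*, which takes its product, had 524 and 505 CPM, 559 and 482 CPM, 476 and 481 CPM, and 398 and 576 CPM in the same order. The ratio of *Gapdh* to *Pgk1* went from 0.119 in *Unc93b1* 3d/3d control replicate 1 to 0.698 in *Unc93b1* 3d/3d αMARCO replicate 2. Between the control genotypes, where *Gapdh* was 4.17-fold higher in WT (log2FC 2.06, SE 0.11, adjusted *P* = 8.14e-06 in edgeR), the log2 fold change (log2FC) was 0.04 for *Tpi1* and −0.03 for *Pgk1*, each with a standard error (SE) of 0.11. It was 0.13 for *Aldoa*, 0.11 for *Eno1*, 0.01 for *Pkm* and −0.26 for *Pgam1*, with SE of 0.11, 0.11, 0.11 and 0.10. In *Unc93b1* 3d/3d αMARCO replicate 2, where *Gapdh* was highest, *Pgk1*, *Aldoa*, *Eno1* and *Ldha* were also at their highest of the 8 libraries, by at most 1.63-fold over their lowest library, and the distinct reads of this library are given above.

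The 131 *Gapdh* pseudogenes differed much less between the libraries than *Gapdh* did. Their summed level was 79.6 and 72.2 CPM in WT control, 79.9 and 73.1 CPM in *Unc93b1* 3d/3d control, 87.4 and 80.7 CPM in WT αMARCO, and 77.2 and 115 CPM in *Unc93b1* 3d/3d αMARCO. Of the reads of *Gapdh* and its pseudogenes together, they took 22.3% and 22.4% (WT) or 54.5% and 55.5% (*Unc93b1* 3d/3d) in controls. After αMARCO they took 50.6% in replicate 1 of WT against 25.8% in replicate 2, and 50.8% in replicate 1 of *Unc93b1* 3d/3d against 22.2% in replicate 2. The sum ranged from 72.2 to 115 CPM and was highest in *Unc93b1* 3d/3d αMARCO replicate 2, the library with the highest *Gapdh*, where the share was lowest. The share falls by its construction when *Gapdh* is higher and the sum is not. With the pseudogene reads added to *Gapdh*, the sums were 357 and 323 CPM in WT control and 147 and 132 CPM in *Unc93b1* 3d/3d control, still without overlap. *Gm7336*, which held 33.2% of the pseudogene counts, was read at 18.4 to 44.5 CPM. Pseudogenes of *Tpi1*, *Pgk1*, *Pgam1*, *Eno1*, *Pkm* and *Ldha* summed to at most 3.04% of their gene in any library. The mean gene length of the reads also differed between libraries. It was 4996 and 5088 bases in WT control and 5521 and 5411 bases in *Unc93b1* 3d/3d control. In the αMARCO groups it was 5544 and 5405 bases in WT and 5478 and 4432 bases in *Unc93b1* 3d/3d. The part of this difference and of read assignment in the *Gapdh* values was not tested.

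**Figure D2:**
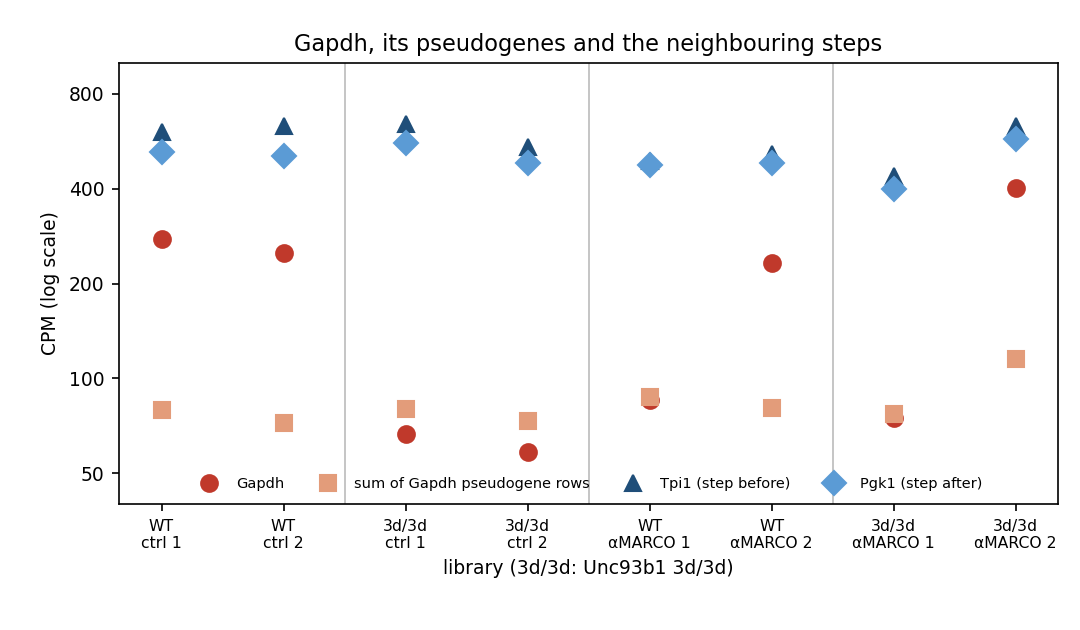
CPM on a log scale (vertical axis) of Gapdh, the sum of its 131 pseudogene rows, Tpi1 and Pgk1 in each of the 8 libraries (horizontal axis), 1 point per library. Gapdh lies between 58.5 and 402 CPM and splits the replicates of both αMARCO groups, while Pgk1 stays between 398 and 576 CPM.

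To examine how loss of endosomal TLR signaling goes with these genes, WT control was compared with *Unc93b1* 3d/3d control. *Gapdh* and the glucose transporter *Slc2a3* were higher in WT, and the hexokinase *Hk2* and the mitophagy receptor *Bnip3* were lower, while the steps from *Gpi1* to *Tpi1*, the remaining payoff steps and the lactate genes had log2FC between −0.26 and 0.19. A gene was called where edgeR's quasi-likelihood test gave an adjusted *P* no greater than 0.05 and its log2FC was 0.5 or more in size. By this rule 4 of 35 members were called, beside 13% of all 15600 genes tested, 2 of them higher in WT, beside 6.58% of all genes, and 2 lower, beside 6.4%. The median log2FC was −0.05 over the members and −0.0036 over all tested genes, and 30 of the 35 members were under 0.5 in size. In a model of all 8 libraries 0 of the 35 members were called. The groups did not overlap for 16 members, and for 63.1% of all genes. In bulk RNA, fewer cells of a type and less RNA per cell cannot be told apart.

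Among the glucose transporters, *Slc2a3* (GLUT3) had 14.5 and 14.8 CPM in WT control and 10.5 and 7.41 CPM in *Unc93b1* 3d/3d control, with no overlap. Its log2FC was 0.69 ± 0.21 (SE, adjusted *P* = 0.0473 from edgeR), and DESeq2 gave an adjusted *P* of 0.0673. The call was also lost without WT control replicate 1, without WT control replicate 2 and without *Unc93b1* 3d/3d control replicate 2, at log2FC values of 0.72, 0.69 and 0.45. T cell markers moved with *Slc2a3*, 8 of 9 being called higher and 1, *Cd4*, lower in WT. So did the dendritic cell markers, which summed to 626 and 330 CPM in WT and 106 and 68.7 CPM in *Unc93b1* 3d/3d, with 2 of 7 called higher. B cell markers summed to 110 and 155 CPM against 25.1 and 25.2 CPM, and NK cell markers to 144 and 120 CPM against 62.6 and 42.4 CPM. The red blood cell markers went the other way, at 0.211 and 1.27 CPM against 6.15 and 2.69 CPM. The part of these markers in the result was not tested. *Slc2a1* (GLUT1) was the more abundant transporter per length, with a median of 80.8 CPM per kb against 0.974 CPM per kb for *Slc2a3*. It had 290 and 262 CPM in WT control against 396 and 281 CPM, which overlapped, as did the groups for *Slc2a6* (GLUT6), at a log2FC of 0.38 ± 0.29 (SE).

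The hexokinases, which trap glucose by phosphorylation, did not move as a group. *Hk2* had 98.5 and 118 CPM in WT control and 174 and 150 CPM in *Unc93b1* 3d/3d control, without overlap, a log2FC of −0.60 ± 0.12 (SE, edgeR adjusted *P* = 0.0103). Without WT control replicate 1 or *Unc93b1* 3d/3d control replicate 1 it was −0.46 and −0.48, under the fold threshold. *Hk1*, the form found in most tissues, had a log2FC of 0.12 with overlapping groups, and *Hk3*, the form of myeloid cells, had −0.34 (adjusted *P* = 0.0918 from edgeR) without overlap. *Pfkfb3*, which makes the activator of phosphofructokinase, had −0.30 (adjusted *P* = 0.0909 from edgeR). In the pyruvate dehydrogenase group, *Pdha1* had 0.29 (adjusted *P* = 0.0815 from edgeR) and the kinase *Pdk1* −0.28 (adjusted *P* = 0.11 from edgeR), neither of which was called.

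All 6 hypoxia response genes had log2FC values below 0, from −0.70 to −0.09, and 1 of them was called. *Bnip3* had 64.8 and 71.9 CPM in WT control against 131 and 88.7 CPM in *Unc93b1* 3d/3d control, with no overlap, and a log2FC of −0.70 ± 0.19 (SE, edgeR adjusted *P* = 0.0462). *Ero1l*, an oxidoreductase of the endoplasmic reticulum, had 118 and 126 CPM against 215 and 129 CPM without overlap (log2FC −0.52, adjusted *P* = 0.233 from edgeR). *Egln3*, a prolyl hydroxylase that is itself a HIF target, had 37.7 and 27.4 CPM against 55.4 and 32.5 CPM, and these overlapped. *Unc93b1* 3d/3d control replicate 1 was the highest of the 8 libraries for 6 of 6 hypoxia response genes and for 15 of the 35 members. It had 167 CPM of *Hif1a*, which encodes HIF-1α, 121 CPM of *Egln1*, the main prolyl hydroxylase, and 357 CPM of *Ndrg1*, a stress-induced gene, against 135, 73.7 and 302 CPM in replicate 2 of the group. Without it, the log2FC of *Bnip3* was −0.39 (adjusted *P* = 0.0599 from edgeR). The call for *Bnip3* was also lost without WT control replicate 1 and without WT control replicate 2, at −0.62 and −0.77, with adjusted *P* of 0.220 and 0.117 from edgeR.

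HIF-1 binds a short core in DNA, and *Hk2* and *Bnip3*, the members called lower in WT control, are textbook HIF-1 targets. *Gapdh* and *Slc2a3*, the members called higher, are a glycolytic enzyme and a glucose transporter, classes that HIF-1 also raises. As a description, promoter windows of *Hk2* and *Bnip3* are shown from RefSeq on GRCm38.p6, 250 bases before to 50 bases after the transcription start. They lie at chr6:82774405-82774704 for *Hk2* and chr7:138909457-138909756 for *Bnip3*, both on the minus strand. Capitals mark the letters ACGTG or GCGTG on either strand, and CACGTG counts as 2 overlapping matches.
Hk2: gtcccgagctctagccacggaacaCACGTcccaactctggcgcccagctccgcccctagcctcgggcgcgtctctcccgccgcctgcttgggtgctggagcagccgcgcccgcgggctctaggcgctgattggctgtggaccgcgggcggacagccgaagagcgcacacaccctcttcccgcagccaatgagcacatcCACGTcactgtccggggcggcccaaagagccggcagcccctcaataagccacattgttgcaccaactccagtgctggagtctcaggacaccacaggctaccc
Bnip3: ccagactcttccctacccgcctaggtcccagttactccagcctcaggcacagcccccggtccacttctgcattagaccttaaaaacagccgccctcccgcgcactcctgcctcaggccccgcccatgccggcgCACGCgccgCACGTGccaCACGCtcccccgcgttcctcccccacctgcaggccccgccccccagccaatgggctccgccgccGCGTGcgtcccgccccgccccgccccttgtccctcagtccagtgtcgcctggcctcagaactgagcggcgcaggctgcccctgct
*Hk2* held 2 matches and *Bnip3* 5. RefSeq windows were found for 34 of the 36 members, the exceptions being *Slc2a3* and *Ndrg1*. At least 1 match was present in 40 of 48 member windows (83.3%) and in 14380 of 32851 windows of all genes (43.8%). *Gapdh* held 3 matches and *Hk3* held 1. These letters are a description of the windows and not of binding, and a part of HIF-1 in the values was not tested.

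**Figure D3:**
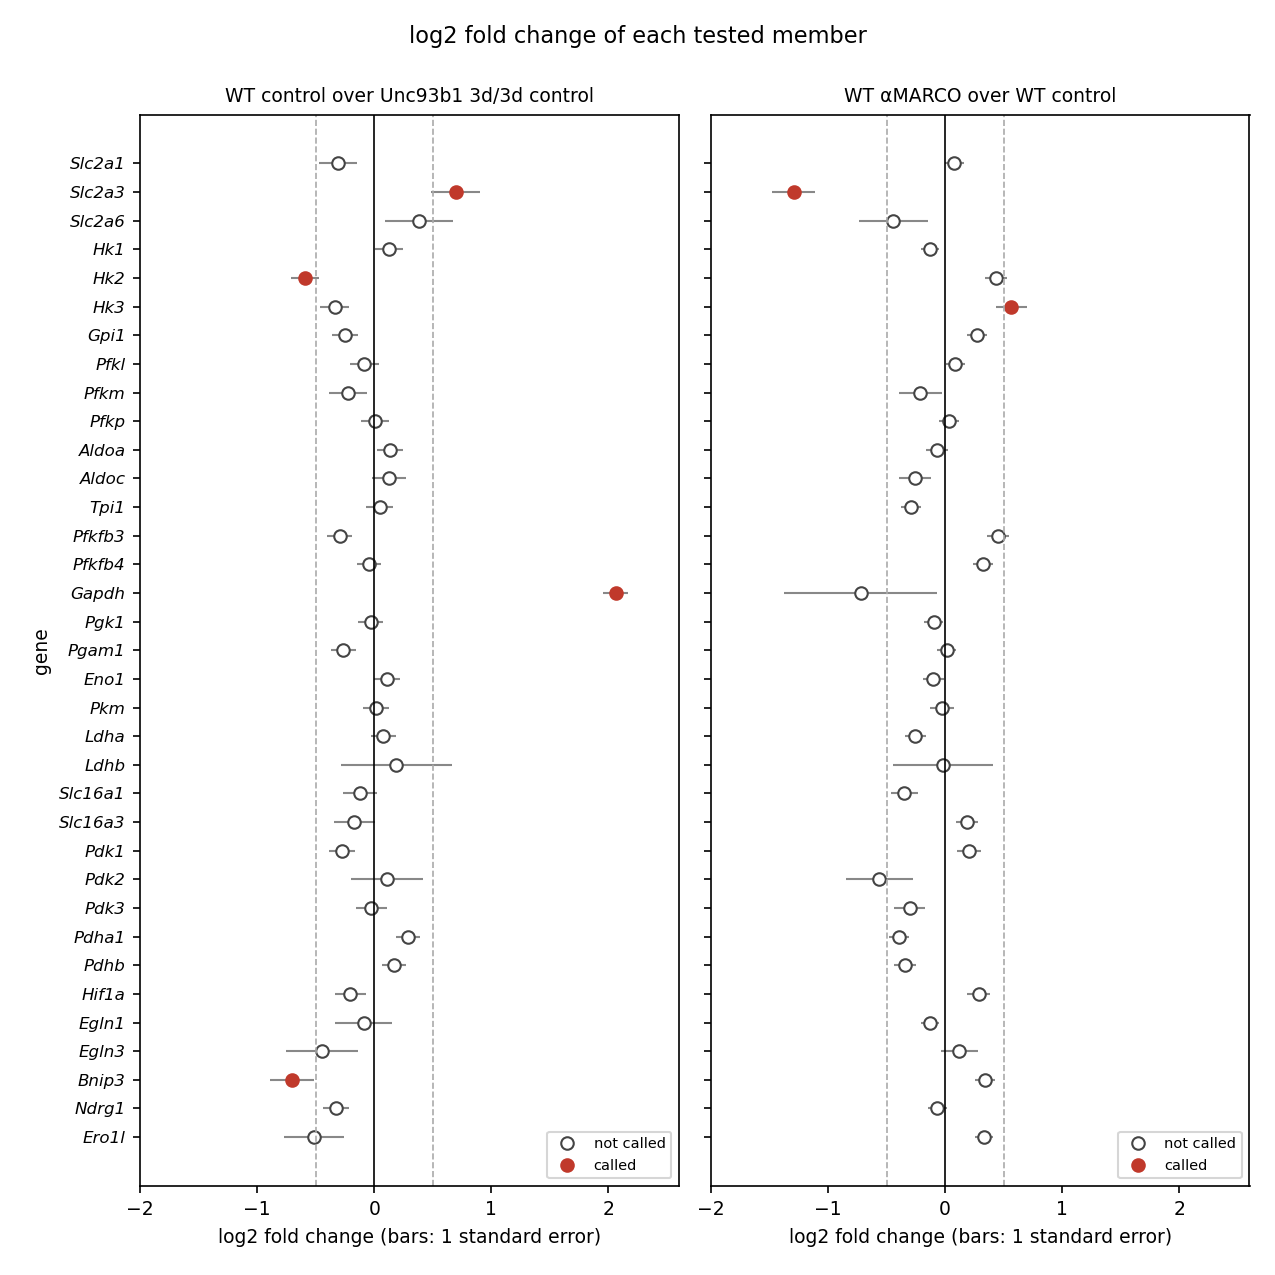
log2 fold change of the 35 tested members (points) with 1 standard error (bars) for WT control over Unc93b1 3d/3d control (left) and WT αMARCO over WT control (right), with filled points for called genes and dashed lines at −0.5 and 0.5. Gapdh stands at 2.06 on the left and has the widest bar on the right, and most other members lie between the dashed lines.

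To examine the response to αMARCO in WT mice, WT αMARCO was compared with WT control, the same 2 control libraries that entered the comparison of genotypes. *Slc2a3* fell and *Hk3* rose, and no other member was called, although 14 of 35 reached an adjusted *P* of at most 0.05 in edgeR, 12 of them with a log2FC under 0.5 in size. The 2 of 35 members called stand beside 20.7% of all 15630 genes tested, the 1 higher beside 8.91% and the 1 lower beside 11.8%. The groups did not overlap for 25 members, against 70.9% of all genes, and the median log2FC was −0.07 over the members and −0.01 over all genes.

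*Slc2a3* went from 14.5 and 14.8 CPM in WT control to 5.10 and 6.71 CPM in WT αMARCO, well apart and 2.45-fold lower, a log2FC of −1.30 ± 0.19 (SE, edgeR adjusted *P* = 0.000947). All 9 T cell markers were called lower in the same comparison, as were 4 of 7 dendritic cell markers, and 7 of 8 proliferation markers. Their part in the result was not tested. In a model of all 8 libraries the adjusted *P* of *Slc2a3* was 0.0673, and the call was kept in the other 9 of 10 alternatives. *Slc2a1* had 286 and 294 CPM after αMARCO, with a log2FC of 0.08 ± 0.08 (SE).

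*Hk3* went from 236 and 304 CPM to 427 and 368 CPM, without overlap (log2FC 0.56, SE 0.13, adjusted *P* = 0.0115 from edgeR). Without WT control replicate 1 it was 0.39 and without WT αMARCO replicate 1 it was 0.46, both under the fold threshold. In a model of all 8 libraries *Hk3* was not called either. Of the 11 macrophage markers 4 were called lower and 0 higher in the same comparison, and of 6 tested neutrophil markers 3 lower and 0 higher. The summed level of the macrophage markers was 13591 and 14357 CPM in WT control and 10765 and 11658 CPM in WT αMARCO. That of all 8 neutrophil markers was 349 and 327 CPM in WT control and, without overlap, 385 and 385 CPM in WT αMARCO. In *Unc93b1* 3d/3d it was 272 and 236 CPM in control and 272 and 221 CPM in αMARCO. The part of these markers in the result was not tested. *Hk2* had 146 and 145 CPM after αMARCO and a log2FC of 0.44 (adjusted *P* = 0.00616 from edgeR), short of the fold threshold. The regulators *Pfkfb3* and *Pfkfb4* had 0.45 and 0.33, and *Gpi1*, which isomerizes the product of hexokinase, had 0.27, all with an adjusted *P* under the threshold. Negative values with an adjusted *P* under the threshold were −0.29 for *Tpi1*, −0.26 for *Ldha*, −0.35 for the lactate transporter *Slc16a1*, and −0.39 and −0.34 for *Pdha1* and *Pdhb*, subunits of pyruvate dehydrogenase. None of these 5 reached the fold threshold. Other late steps were near 0 or positive, at −0.03 for *Pkm*, −0.10 for *Pgk1* and for *Eno1*, 0.01 for *Pgam1*, 0.19 for *Slc16a3* and 0.20 for *Pdk1*, with adjusted *P* above the threshold.

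The hypoxia response genes were split. *Bnip3*, *Ero1l* and *Hif1a* had log2FC values of 0.34, 0.33 and 0.29 with adjusted *P* of 0.0112, 0.0084 and 0.0467 from edgeR, under the fold threshold, and *Egln1*, *Egln3* and *Ndrg1* lay between −0.13 and 0.12. *Gapdh* was not called, with a log2FC of −0.72 and an SE of 0.65 (adjusted *P* = 0.493 from edgeR). Without WT αMARCO replicate 2 it was −1.62 (adjusted *P* = 5.28e-05 from edgeR), and without WT αMARCO replicate 1 it was −0.17.

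In *Unc93b1* 3d/3d mice, αMARCO was compared with control in the same way, and 0 of 35 members were called in edgeR. No gene of 15428 was called (0%), with 744 genes and 3 members at an unadjusted *P* under 0.05, and DESeq2 called 60 genes and 0 members. The groups did not overlap for 15 members, against 38.9% of all genes, and 25 of the 35 log2FC values were below 0. Of the members without overlap 13 were lower and 2 higher, beside 2959 genes lower and 3037 higher among all 15428. All 3 glucose transporters and all 3 hexokinases were lower after αMARCO with no overlap, at log2FC from −0.96 to −0.34 and from −0.68 to −0.45, and *Unc93b1* 3d/3d αMARCO replicate 2, the library that stood apart, was the lowest of the 8 for 3 of 3 hexokinases. *Hk1* had 109 and 87.5 CPM in *Unc93b1* 3d/3d control and 86.5 and 56.2 CPM in *Unc93b1* 3d/3d αMARCO, so its groups barely separated. The members at an unadjusted *P* under 0.05 were *Gapdh*, *Slc2a3* and *Hk3*. *Gapdh* had a log2FC of 1.95 with an SE of 0.73, which became 0.26 without *Unc93b1* 3d/3d αMARCO replicate 2 and 2.70 without *Unc93b1* 3d/3d αMARCO replicate 1. *Slc2a3* went from 10.5 and 7.41 CPM to 5.24 and 3.94 CPM, a log2FC of −0.96 with an SE of 0.36. The 9 T cell markers were lower in the same libraries, from 70.5 and 79.2 CPM to 11.4 and 16.1 CPM in sum, and their part in the result was not tested. The payoff steps other than *Gapdh* had log2FC between −0.27 and 0.21, and *Unc93b1* 3d/3d αMARCO replicate 1 was the lowest of the 8 libraries for 4 of the 5 payoff steps.

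The genotypes were also compared under αMARCO. Again 0 of 35 members and 0 of 15722 genes (0%) were called in edgeR, with 1076 genes and 1 member, *Hk3*, at an unadjusted *P* under 0.05. DESeq2 called 215 genes, *Hk3* among them. The groups did not overlap for 17 members, against 44.3% of all genes. The 3 hexokinases were higher in WT without overlap, at log2FC of 0.46 for *Hk1*, 0.34 for *Hk2* and 0.92 for *Hk3*, and so was the platelet phosphofructokinase *Pfkp*, at 0.56 ± 0.26 (SE). In *Unc93b1* 3d/3d αMARCO replicate 2, the library that stood apart, *Hk1*, *Hk2* and *Pfkp* had 56.2, 96.5 and 142 CPM. Replicate 1 of that group had 86.5, 134 and 217 CPM. Without replicate 2 the log2FC was 0.12 for *Hk2* and 0.87 for *Hk3*. *Gapdh* had a log2FC of −0.58 with an SE of 0.88, and 1.09 without *Unc93b1* 3d/3d αMARCO replicate 2.

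When the αMARCO effects were set against each other between genotypes, *Hk3* had the lowest adjusted *P* of the 35 members, and it was not called in edgeR. It had 328 and 348 CPM in *Unc93b1* 3d/3d control and 218 and 204 CPM in *Unc93b1* 3d/3d αMARCO, so that it was lower after αMARCO in *Unc93b1* 3d/3d libraries and higher in WT libraries, with no overlap in either genotype. The log2FC values were −0.68 in *Unc93b1* 3d/3d (SE 0.22) and 0.92 for WT over *Unc93b1* 3d/3d under αMARCO (SE 0.20). The difference between the αMARCO effects, tested in a model of all 8 libraries, was 1.24 on the log2 scale (SE 0.25, adjusted *P* = 0.284 from edgeR), and DESeq2 gave an adjusted *P* of 0.00151. Leaving out *Unc93b1* 3d/3d αMARCO replicate 2 gave 1.18 and an adjusted *P* of 0.00635 from edgeR, and leaving out *Unc93b1* 3d/3d αMARCO replicate 1 gave 1.29 and an adjusted *P* of 0.000152. Over all 13 alternatives the difference stayed between 1.06 and 1.43, with an adjusted *P* of 0.000152 to 0.656, and it was called in 4. In the fits that left out a library, the single remaining library of its group was taken to vary like the other groups.

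For the difference between the αMARCO effects, 0 of 35 members and 0 of 16620 genes (0%) were called in edgeR, with 4 members and 2549 genes at an unadjusted *P* under 0.05. DESeq2 called 208 genes and 1 member. The 3 members beside *Hk3* at that unadjusted *P* were *Gapdh* at −2.66 (SE 0.98), *Hk2* at 0.92 (SE 0.27) and *Ero1l* at 0.90 (SE 0.32). *Hk2* had 134 and 96.5 CPM in *Unc93b1* 3d/3d αMARCO, where replicate 2 lay at the level of WT control. The 6 hypoxia response genes had differences from 0.04 to 0.90, all above 0, and 0 of them were called. *Unc93b1* 3d/3d control replicate 1, the highest of the 8 libraries for 6 of 6 of these genes, enters each difference. *Egln1* had 121 and 73.7 CPM in *Unc93b1* 3d/3d control and 73.8 and 99.1 CPM in *Unc93b1* 3d/3d αMARCO. *Ndrg1* had 357 and 302 CPM against 278 and 315 CPM. The difference for *Bnip3* went from 0.32 to 0.88 over 13 alternatives. The part of that library in the shared sign was not tested. *Tpi1* and *Pgk1* had differences of −0.15 and −0.01, with SE of 0.29 and 0.28, beside −2.66 for *Gapdh*.

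**Figure D4:**
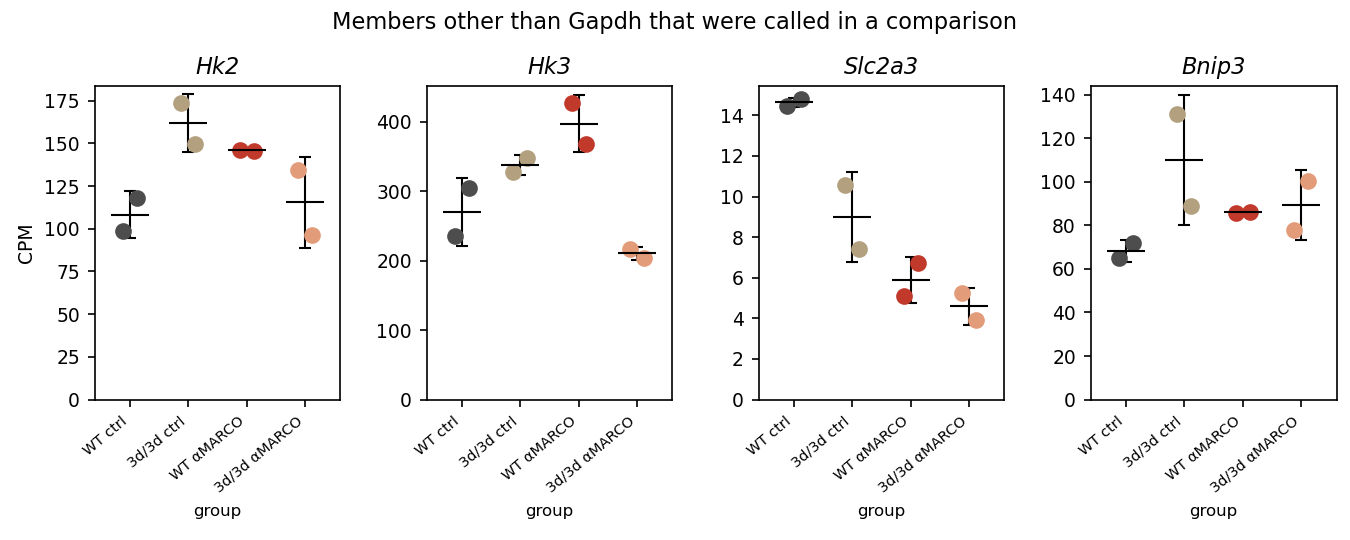
CPM (vertical axes, from 0) of Hk2, Hk3, Slc2a3 and Bnip3 in the 4 groups, with 1 point per library, a horizontal line at the mean and bars of 1 SD (n = 2). Hk3 is higher after αMARCO in WT, at 427 and 368 CPM, and lower in Unc93b1 3d/3d, at 218 and 204 CPM, and Slc2a3 is highest in WT control, at 14.5 and 14.8 CPM.

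The members were set beside other genes of the same and neighbouring pathways. Between the control genotypes, 3 of 22 tested other glycolysis and pyruvate genes were called higher in WT, the muscle enolase *Eno3* at 0.64, the mitochondrial glycerol phosphate dehydrogenase *Gpd2* at 0.56 and the mitochondrial pyruvate carrier subunit *Mpc2* at 0.54. The pyruvate dehydrogenase phosphatase *Pdp1* was the 1 called lower, at −0.56. Of 33 other hypoxia response genes, 3 were called higher, the lipoprotein lipase inhibitor *Angptl4* at 1.81, the transcriptional repressor *Bhlhe40* at 0.60 and the prolyl hydroxylase *Egln2* at 0.57, and 1 lower, the glycogen synthase *Gys1* at −0.52. In the pentose phosphate pathway, which branches from the product of hexokinase to make NADPH and ribose, 3 of 8 were called higher, *G6pdx* at 0.62, *Tkt* at 0.53 and *Taldo1* at 0.52. In the tricarboxylic acid cycle, 2 of 19 were called higher, *Suclg2* at 0.60 and *Mdh1* at 0.58, and the median log2FC was 0.40, against −0.05 for the members. The shares called were 18.2%, 12.1%, 37.5% and 10.5% of the lists in the order given, beside 13% of all genes (6.58% higher and 6.4% lower). The mean gene length of the reads also differed between these groups, at 4996 and 5088 bases in WT control and 5521 and 5411 bases in *Unc93b1* 3d/3d control, and its part in the results for these lists and for the members was not tested.

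After αMARCO in WT mice, 4 of 22 other glycolysis and pyruvate genes were called lower and 0 higher, with *Bpgm*, which makes bisphosphoglycerate, at −1.03, the pyruvate dehydrogenase subunit *Dlat* at −0.58 and *Eno3* at −0.51 having the largest values. Of 32 other hypoxia response genes, 8 were called lower and 3 higher. *Adm* (adrenomedullin) had 20.5 and 23.5 CPM in WT control and 5.73 and 5.63 CPM in WT αMARCO, a log2FC of −1.95, and the collagen-modifying *Plod2* and the nuclear receptor *Rora* had −1.80 and −1.29. *Vegfa*, the vascular growth factor, had 135 and 155 CPM in WT control and 274 and 338 CPM in WT αMARCO, a log2FC of 1.08, and *Gys1* and the histone demethylase *Kdm4b* had 0.70 and 0.54. In the pentose phosphate pathway 2 of 8 were called lower, *Taldo1* at −0.62 and *Pgls* at −0.53. In the tricarboxylic acid cycle 5 of 19 were called lower, with *Mdh1*, *Suclg2* and *Sdhd* at −0.82, −0.73 and −0.69, and the median was −0.38. The shares called were 18.2% of the other glycolysis and pyruvate genes, 34.4% of the other hypoxia response genes, 25.0% of the pentose phosphate genes and 26.3% of the tricarboxylic acid cycle genes, beside 20.7% of all genes, and 11.8% of all genes were called lower and 8.91% higher. The libraries themselves also differed, with a mean gene length of the reads of 4996 and 5088 bases in WT control and 5544 and 5405 bases in WT αMARCO, and with 1.07 and 1.03% of reads from mitochondrial genes in WT control and 2.37 and 2.74% in WT αMARCO. The part of these differences in the results for the lists and for the members was not tested. In the remaining comparisons 0 genes of these 4 lists were called in edgeR, with between 0 and 13 genes of a list at an unadjusted *P* under 0.05, and DESeq2 called at most 2 of a list.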

How the data were processed

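Counts per gene were deposited by the authors in 3 tables of 2 groups each, without normalization. Per the labels, reads from poly-A RNA were processed with fastp, HISAT2 2.0.5 and featureCounts 1.5.0 on GRCm38, and the gene length in bases is the authors' value. Deposited normalized counts and FPKM were not used. The authors' DESeq2 1.40.2 fold changes and p-values, which hold their own comparisons, were not used either.

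Joining on gene identifiers gave 26939 genes, and 0 of 95230 repeated counts differed. A gene absent from a table, whose genes had 2 counts or more in all, was given 0 counts. Comparisons were tested in R 4.3.3 with edgeR 4.0.16 (TMM, filterByExpr, robust quasi-likelihood test, Benjamini-Hochberg adjustment over all tested genes), each on its own 4 libraries, and the difference between αMARCO effects on all 8. Standard errors are the log2 fold change over the root of the F statistic. The procedure was tested on simulated data. The alternatives were DESeq2 1.42.0, its size factors, other filters and thresholds, a single model, a replicate block and leaving out each library. The labels do not say that libraries came from separate animals, so *P* values measure the spread between libraries, which may be technical.

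All members were accounted for. Values per library are given for *Gapdh* and for called members without overlap, and of each pathway list up to 3 called genes per direction were named. The members and lists were chosen with earlier results of these data known, and the windows of shared sequence, the pseudogenes of members other than *Gapdh* and the count of libraries in which members were highest were added after seeing the data. Protein sequences were not used here.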

Additional observations from a re-analysis of the deposited data

How the results depend on the processing

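With 2 libraries a group, 1 library can decide a call. Counts were few for *Pdk4*, at 0 to 4 a library, and for *Ldhb*, at 19 to 40, while *Pdk2* had 69 to 119. With a log2FC of 1 or more required, 1 member was called between the control genotypes and 1 for αMARCO in WT, against 4 and 2. With no fold threshold, 14 were called for αMARCO in WT. In a model of all 8 libraries, 0 members were called in both, with 364 and 164 genes against 2025 and 3236. DESeq2 called 1 member, *Hk3*, between the genotypes under αMARCO and 1 for the difference between the αMARCO effects. Without a filter on low counts, 1 member was called for αMARCO in *Unc93b1* 3d/3d (*Gapdh*) and 1 for the difference (*Hk3*).

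Over all genes, a log2FC of 1 or more left 951 and 1366 calls, and no fold threshold gave 5487 for αMARCO in WT. For the genotypes under αMARCO, αMARCO in *Unc93b1* 3d/3d and the difference, each with 0 genes called in edgeR, DESeq2 called 215, 60 and 208, and edgeR without a filter 107, 174 and 152. The model of all 8 libraries called 108 and 1 in the first and second of these. Without *Unc93b1* 3d/3d αMARCO replicate 1 the calls were 6366, 5500 and 6440, and without replicate 2 they were 1252, 573 and 612.

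Leaving out each library in turn, with the remaining library of its group taken to vary like the others, gave 1 to 6 members between the control genotypes, 1 to 6 for αMARCO in WT, 0 to 12 between the genotypes under αMARCO, 0 to 8 for αMARCO in *Unc93b1* 3d/3d and 0 to 10 for the difference. The 12, 8 and 10 came without *Unc93b1* 3d/3d αMARCO replicate 1, which leaves the library that stood apart, and without replicate 2 they were 1, 1 and 2. Between the control genotypes, 1 member, *Gapdh*, was called without WT control replicate 1 and 2 without *Unc93b1* 3d/3d control replicate 1. For αMARCO in WT, 1 was called without WT control replicate 1 and 6 without WT control replicate 2. Between the genotypes under αMARCO, the log2FC of *Gapdh* went from −1.48 to 1.09 and that of *Bnip3* from −0.22 to 0.14, each highest without *Unc93b1* 3d/3d αMARCO replicate 2. After αMARCO in *Unc93b1* 3d/3d, that of *Bnip3* went from −0.54 to 0.0198, the latter without *Unc93b1* 3d/3d control replicate 1. The cause was not tested.

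Same-numbered libraries were not treated as pairs in the main tests. Correlations of their deviations, 1 for each comparison of 2 groups, were 0.0096, 0.14, −0.00098 and 0.11. With 2 libraries a group, these cannot settle whether the libraries were paired. With a replicate block, 4 members were called between the control genotypes, 2 for αMARCO in WT and 0 in each other comparison, as without it. *Gapdh* between the control genotypes stayed between 1.96 and 2.16 and was called in 9 of 10 alternatives, the exception being the model of all 8 libraries, with an adjusted *P* of 0.213 from edgeR.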
